A study of Mus musculus with 4 samples.

Results

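Imprinted genes are expressed from the maternal or the paternal copy only, in some or all tissues. The choice is set in the germ line by methylation of CpG-rich control regions, the germline differentially methylated regions (DMRs), which is kept after fertilisation on the copy from that parent by factors such as ZFP57, a zinc finger protein that binds a methylated hexamer, TGCCGC. Most imprinted genes lie in clusters in which a DMR acts as the promoter of a gene or of a noncoding RNA, or as an insulator bound by CTCF, and the active copy of a DMR is known to carry active histone marks. Here the acetylation of histone H3 at lysine 9 (H3K9ac) and lysine 14 (H3K14ac), marks of active promoters and enhancers, was measured at 33 imprinted genes of mouse embryonic stem (mES) cells. The 33 genes were a list of names of known imprinted genes, all of which were found in the GENCODE vM1 annotation. Of these, 31 are among the 22367 protein-coding genes of that annotation, and H19 and Meg3 are noncoding. They fall into 16 domains, 19 are known for expression from the paternal copy and 14 from the maternal copy. The Peg3, Snrpn, H19-Igf2 and Kcnq1 domains and Inpp5f lie on chromosome 7, those of Mest, Peg10 and Nap1l5 on chromosome 6, Nnat and Gnas on chromosome 2, Grb10 and Zrsr1 on chromosome 11, Plagl1 on chromosome 10, the Dlk1-Dio3 domain on chromosome 12, Igf2r on chromosome 17 and Impact on chromosome 18.

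The libraries are H3K9ac (rabbit polyclonal AB4441, Abcam), H3K14ac with the mouse monoclonal 13HH3-1A5 (called 13HH3), H3K14ac with another mouse monoclonal (7G8), and input DNA with no antibody. All 4 came from untreated mES cells, labelled as line E14 of strain 129P2/OlaHsd at passages 25 to 30, whereas the methods of the study describe wild type ES cells taken from blastocysts. Each antibody had 1 library and no replicate, so no test was possible and every interval given covers counting error only. The mapped reads (tags) carry no allele, so each value sums the silent and the active copy. The libraries held 23183487 (H3K9ac), 22365676 (13HH3), 23839094 (7G8) and 19313927 (input) tags. As a check of the cell type, H3K9ac was at least 2-fold over input at 9 of 10 genes that mark ES cells. The same held at 2 of 8 genes that mark feeder fibroblasts, and at 57.2% of all protein-coding genes with at least 5 input tags. An H3K9ac peak was called at 9 of the 10 and at 4 of the 8. On the log2 scale the medians were 2.61 and 0.85, and the highest of the fibroblast genes was at 1.15.

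For each gene, tags were counted in the 4000 bp around the annotated 5′ end (2 kb on each side), expressed per 10000000 tags of the library (normalised tags), and given as the log2 ratio over input with an exact 95% interval. The 5′ end of the annotation is the outermost start of any transcript, which for some of these genes is far from the promoter that carries the imprint. RefSeq promoters, 250 bases before to 50 after a start, were therefore placed on the same genome build (NCBIM37, mm9) by exact match of their sequence. The table held 41 such promoters for 27 of the 33 genes, and all 41 matched once.

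The promoters on which the results turn most are shown here, each read 5′ to 3′ along its gene. The capitals mark TGCCGC or its reverse complement GCGGCA. The first is the imprinted promoter of Snrpn (chr7:67150036-67150335, minus strand), the second that of Mest (chr6:30687800-30688099, plus strand), and both lie far inside the annotated gene. The third, at Plagl1 (chr10:12810388-12810687, plus strand), had the fewest tags of 13HH3 relative to input among the 33 genes. The fourth, at Peg3 (chr7:6683081-6683380, minus strand), is shared with Usp29 on the other strand and holds no match in these bases.
Snrpn: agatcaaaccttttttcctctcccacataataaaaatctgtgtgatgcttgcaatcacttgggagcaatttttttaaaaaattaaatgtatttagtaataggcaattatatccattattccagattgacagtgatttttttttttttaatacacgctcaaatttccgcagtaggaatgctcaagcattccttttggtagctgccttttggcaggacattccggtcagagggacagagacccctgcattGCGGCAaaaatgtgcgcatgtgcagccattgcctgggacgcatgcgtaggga
Mest: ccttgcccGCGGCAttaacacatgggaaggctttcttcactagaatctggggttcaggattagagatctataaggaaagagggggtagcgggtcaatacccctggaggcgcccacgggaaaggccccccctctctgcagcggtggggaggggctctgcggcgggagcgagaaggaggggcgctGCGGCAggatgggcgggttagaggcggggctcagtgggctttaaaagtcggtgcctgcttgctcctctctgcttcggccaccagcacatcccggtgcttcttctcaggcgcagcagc
Plagl1: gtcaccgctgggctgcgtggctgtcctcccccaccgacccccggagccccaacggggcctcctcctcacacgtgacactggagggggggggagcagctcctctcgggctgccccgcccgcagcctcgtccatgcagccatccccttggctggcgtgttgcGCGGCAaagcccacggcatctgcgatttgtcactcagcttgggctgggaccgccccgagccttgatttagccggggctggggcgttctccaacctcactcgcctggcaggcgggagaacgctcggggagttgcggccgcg
Peg3: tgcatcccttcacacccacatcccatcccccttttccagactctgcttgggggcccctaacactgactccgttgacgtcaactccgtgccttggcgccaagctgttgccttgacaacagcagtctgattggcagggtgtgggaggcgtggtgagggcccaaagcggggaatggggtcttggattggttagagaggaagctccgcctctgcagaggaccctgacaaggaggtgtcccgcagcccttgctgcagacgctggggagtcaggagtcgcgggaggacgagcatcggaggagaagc
The hexamer was found in 11 of the 41 promoters of imprinted genes (26.8%) and in 11.6% of the 32851 promoters of the RefSeq table with the same length. These promoters are not independent, since several genes have more than 1 and some nearly coincide.

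H3K9ac was at or above 2-fold over input at 22 of the 33 genes, among them 21 of the 31 that are protein-coding, beside 57.2% of the 21550 protein-coding genes with at least 5 input tags. The share of the imprinted protein-coding genes was 67.7%. H3K9ac peaks were present in the window of 29 of the 33 (27 of the 31, 87.1%), beside 67.7% of all genes. For 13HH3 the 2-fold level was reached by 4 genes (Ube3a, Impact, Peg12 and Dio3), against 16.3% of all genes, and a peak was present at 11, against 29.7%. With 7G8, 3 genes reached it (Ube3a, Impact and Zrsr1), against 16.8% of all genes, and a peak was present at 9, against 26.1%. The median log2 ratio of the 33 genes was 1.30 for H3K9ac, 0.22 for 13HH3 and 0.28 for 7G8, and that of all genes was 1.31, 0.35 and 0.35. The medians were thus close to those of all genes. The share with an H3K9ac peak was higher, but by less at the stricter peak threshold given in the last section. With 7G8 the share at 2-fold was lower (9.68% of the 31), whereas the share with a peak was higher (29.0%, beside 26.1%). The shares of 13HH3 were split in the same way (12.9% at 2-fold, beside 16.3%, and 35.5% with a peak, beside 29.7%). None of these differences was tested. The H3K14ac counts are small and go both ways, so they do not set the imprinted genes apart from all genes.

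**Figure D1:**
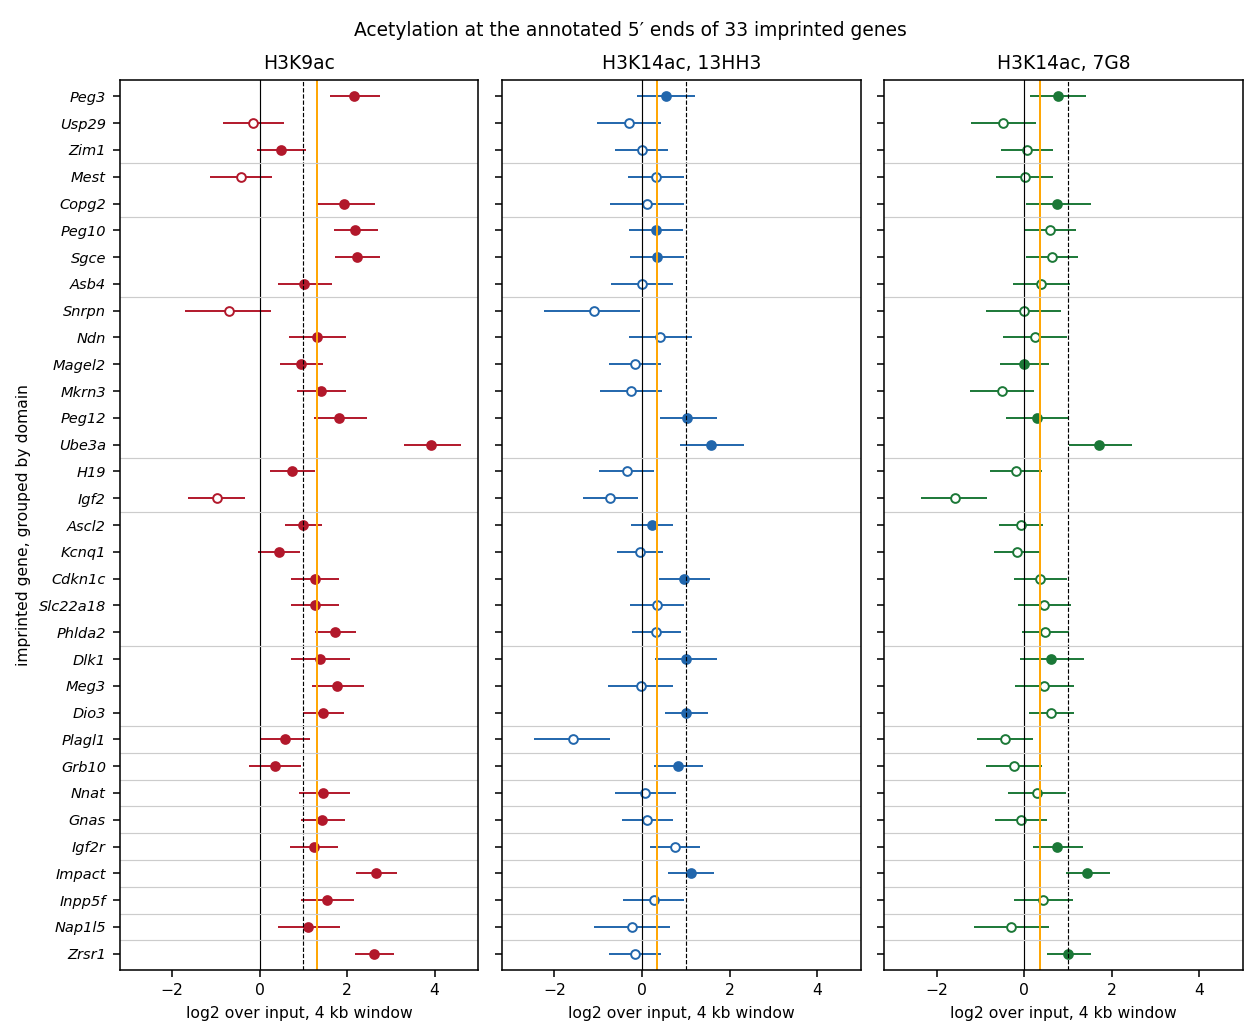
Log2 ratio over input (x axis) of each antibody in the 4 kb around the annotated 5′ end of the 33 imprinted genes (y axis, grouped by domain). Bars are exact 95% intervals from the tag counts, filled points have a peak within 2 kb, dashed lines mark 2-fold and orange lines the median of all protein-coding genes. Ube3a is the highest point in each panel (3.92, 1.57 and 1.71), and Plagl1 lies at -1.57 for 13HH3.

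Among the 11 genes whose promoter lies in a DMR methylated on the maternal copy, the H3K9ac ratio at the annotated 5′ end ran from -0.70 to 2.65 with a median of 1.46. Of the 11, 7 were at or above 2-fold, beside 57.2% of all protein-coding genes. The annotated 5′ ends of Mest, Snrpn and Usp29 lie far from their DMR promoters. Impact, a regulator of the kinase Gcn2, was the highest of the 11. It had 147 normalised tags for H3K9ac, 50.4 for 13HH3, 62.9 for 7G8 and 23.3 for input, so that all 3 antibodies were above 2-fold, at 2.65, 1.11 and 1.43. In the 1 kb around the start (500 bp on each side), its 13HH3 ratio was 0.34, from 17 tags against 12 of input. No other gene of this group passed 2-fold with 13HH3 in the 4 kb window, where 16.3% of all protein-coding genes did. In narrower windows Peg10 (1.10, -0.02 to 2.33, with 500 bp on each side) did. So did the annotated 5′ end of Mest with 1 kb on each side (1.18, 0.28 to 2.15), but not with 500 bp (0.54, -0.84 to 2.01). The DMR promoter of Mest lies 14503 bp downstream of that end, and 13HH3 was at -0.16 in the 4 kb there.

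Zrsr1 is an intronless gene related to the splicing factor U2AF1 that lies inside Commd1. In the 4 kb window it had nearly as much H3K9ac as Impact but less 13HH3. It held 158 normalised tags for H3K9ac, 23.1 for 13HH3, 52.0 for 7G8 and 25.9 for input. The log2 ratio over input was 2.61 (95% interval 2.18 to 3.07) for H3K9ac, -0.16 (-0.76 to 0.43) for 13HH3 and 1.01 (0.52 to 1.51), with a peak, for 7G8. The ratio of 13HH3 to H3K9ac was -2.77 on the log2 scale, the lowest of the 33 genes, and only 0.27% of all protein-coding genes had a lower one. Its strongest 1 kb of H3K9ac was centred 500 bp upstream of the annotated 5′ end and 144 bp from an annotated start of Commd1, so these tags cannot be given to a single gene. In that window Impact and Zrsr1 differed little in H3K9ac, with overlapping intervals (2.20 to 3.14 and 2.18 to 3.07). Their 13HH3 intervals do not meet there (0.60 to 1.65 and -0.76 to 0.43), while those of 7G8 overlap (0.94 to 1.95 and 0.52 to 1.51). The 13HH3 difference was not kept in narrower windows. With 1 kb on each side the 13HH3 intervals overlap (0.38 to 1.79 and -0.80 to 0.77). With 500 bp the values were alike, at 0.34 (-0.81 to 1.54) for Impact and 0.42 (-0.99 to 1.92) for Zrsr1.

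Peg10, a gene derived from a retrotransposon, and Sgce, which encodes ε-sarcoglycan, are transcribed away from each other from starts 102 bp apart. Their windows share 3899 of 4000 bp, so they hold nearly the same tags and are not independent. Both are nevertheless counted in the totals and medians given here. H3K9ac reached 94.0 normalised tags against 20.7 of input in the window of Peg10, a log2 ratio of 2.18 (1.69 to 2.71), while 13HH3 was at 0.32 (-0.29 to 0.95). Peg3, a zinc finger gene, was similar, with 74.2 normalised tags for H3K9ac, 24.0 for 13HH3, 28.1 for 7G8 and 16.6 for input. Its ratios were 2.16 for H3K9ac (1.61 to 2.76), 0.54 for 13HH3 (-0.13 to 1.22) and 0.76 for 7G8 (0.13 to 1.42). The interval of H3K9ac lay above 0 at both promoters, whereas that of 13HH3 included 0 at each, although a 13HH3 peak was called in the windows of Peg3, Peg10 and Sgce. With 7G8, Peg10 was at 0.58 (0.01 to 1.18). The strongest 1 kb of H3K9ac at Peg3 was centred 2279 bp downstream of the 5′ end, inside the gene, with 91 tags against 17 of input.

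Nnat, which encodes neuronatin, and Nap1l5, a gene of the nucleosome assembly protein family, are small genes that lie inside introns of Blcap and Herc3. Nnat had an H3K9ac ratio of 1.46 (0.89 to 2.06), and Nap1l5 one of 1.12 (0.43 to 1.84). Neither had a peak of H3K14ac with either antibody. Near Nnat, the strongest 1 kb of H3K9ac was not at the gene itself but at a start of Blcap, its host, with 196 tags against 12 of input.

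Plagl1, a zinc finger gene that restrains growth, stood apart in the other direction. It had 34.9 normalised tags for H3K9ac, 7.86 for 13HH3, 17.2 for 7G8 and 23.3 for input. In the 4 kb window H3K9ac was a little above input, at 0.58 (0.04 to 1.14), with a peak, and 7G8 was at -0.44 (-1.08 to 0.21). The 13HH3 ratio was -1.57 (-2.47 to -0.73), and 0.83% of all protein-coding genes had a lower value. H3K9ac passed 2-fold in narrower windows, at 1.26 (0.59 to 1.98) with 1 kb on each side and 1.44 (0.59 to 2.39) with 500 bp. There 13HH3 was at -1.22 (-2.35 to -0.18) and -0.90 (-2.27 to 0.39), so the last interval included 0. The study had chosen a stretch of this promoter as a control site for ChIP-qPCR, with the primers tctgcccagtttctggtttgc and atgcgcaaagccaaggtctc. They enclose 143 bp at chr10:12810234-12810376, centred 192 bp upstream of the annotated 5′ end. In the 1000 bp around that site, 35 tags of H3K9ac, 5 of 13HH3, 14 of 7G8 and 14 of input were found, which gave log2 ratios of 1.06 (0.13 to 2.07), -1.65 (-3.48 to -0.09) and -0.30 (-1.48 to 0.87). The site was therefore below input for 13HH3 and above it for H3K9ac, while the interval of 7G8 included 0.

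At the annotated 5′ ends of Mest, Snrpn and Usp29, H3K9ac was at or under input. Mest, which encodes a protein of the α/β-hydrolase family, had 14.7 normalised tags for H3K9ac and 19.7 for input there, a ratio of -0.42 (-1.14 to 0.28). At a start 14503 bp further on, the one whose sequence is given above, it had 148 tags of H3K9ac, 33 of 13HH3, 61 of 7G8 and 33 of input, and the H3K9ac ratio was 1.90 (1.35 to 2.49). Starts at 8421 bp and 17235 bp were at 1.01 and 1.24. At the start with the most H3K9ac, the 13HH3 ratio was -0.16 (-0.90 to 0.58) and the 7G8 ratio 0.58 (-0.05 to 1.24). Neither antibody had a peak there. The log2 ratio of 7G8 to 13HH3 was 0.75 (0.11 to 1.40) at that start.

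Snrpn, which encodes a protein of the splicing machinery, showed the same pattern over a longer distance. At its annotated 5′ end, 17 tags of H3K9ac, 12 of 13HH3, 28 of 7G8 and 23 of input were counted, and the H3K9ac ratio was -0.70 (-1.70 to 0.27). At the promoter it shares with Snurf, 135020 bp downstream, the counts were 196, 43, 69 and 44, and the H3K9ac ratio was 1.89, beside -0.20 for 13HH3 and 0.35 for 7G8. The other 3 RefSeq starts of Snrpn lie upstream of this promoter and had H3K9ac ratios of -0.16, -0.70 and -1.46. H3K9ac was therefore above input at the DMR promoter of Snrpn, while the intervals of the first and the second of the upstream starts (-1.32 to 1.00 and -1.70 to 0.27) included 0. With input scaled by bins without peaks, which raises H3K9ac by 0.45, the first of them was above input.

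For Usp29, a ubiquitin-specific peptidase, the annotation begins near the coding part, and H3K9ac was at -0.14 (-0.85 to 0.56). Its RefSeq start lies 230577 bp upstream, 164 bp from that of Peg3, and had the H3K9ac that this promoter shares, at 2.27 (1.71 to 2.88). At the RefSeq start with the most H3K9ac, 23 of the 27 genes that had one were at or above 2-fold, beside 18 of the same 27 at the annotated 5′ end. These starts were picked for their H3K9ac, which raises the count, and the share of all genes under the same choice was not computed.

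**Figure D2:**
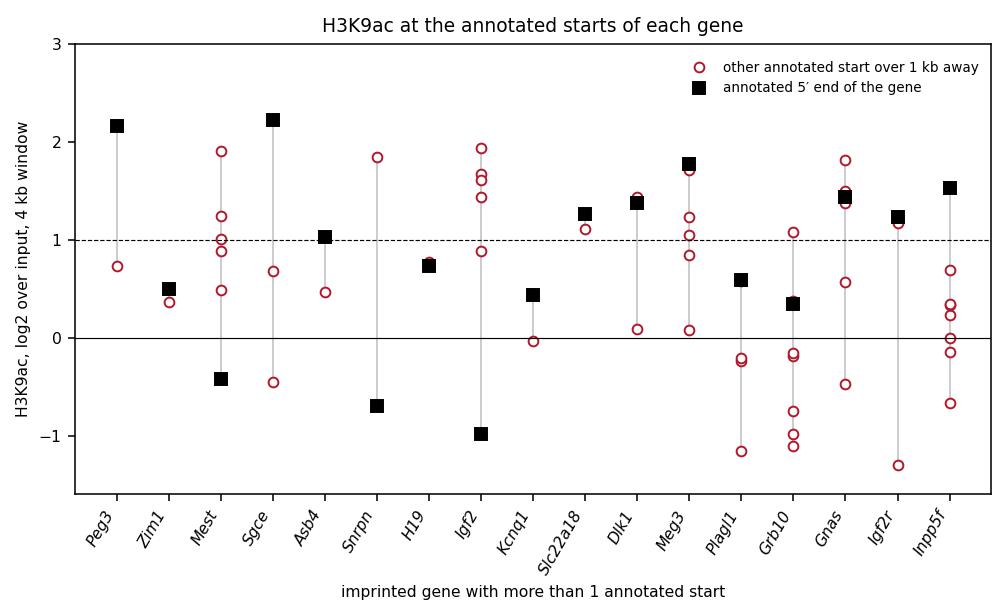
H3K9ac log2 ratio over input (y axis) at the annotated 5′ end (black squares) and at other annotated starts over 1 kb away (open circles) of the 17 imprinted genes that have such starts (x axis). The squares of Mest, Snrpn and Igf2 lie below 0 while their highest circles lie at 1.90, 1.84 and 1.93, and the dashed line marks 2-fold.

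In 5 genes the DMR lies inside the gene, at the promoter of another transcript. The H3K9ac ratio at their 5′ ends ran from 0.34 to 1.53, and 3 were at or above 2-fold. Neither H3K14ac antibody reached 2-fold at any of them in the 4 kb window. Among all protein-coding genes the shares at 2-fold were 57.2% for H3K9ac, 16.3% for 13HH3 and 16.8% for 7G8. With 5 genes, these counts do not set the group apart from all genes. With 1 kb on each side, Grb10 and Igf2r reached 2-fold for 13HH3 (1.31 and 1.01) and Igf2r for 7G8 (1.13). With 500 bp on each side, Inpp5f reached it for 13HH3 (1.10), and Kcnq1 and Grb10 for both antibodies. Inpp5f, an inositol phosphatase, was the highest at 1.53 (0.95 to 2.15). Its inner starts at 76218 bp and 77161 bp had H3K9ac ratios of 0.34 and 0.69, both below 2-fold.

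Gnas encodes the stimulatory G protein α subunit and several other proteins from separate first exons. At its outermost start, that of Nesp, the ratio of H3K9ac was 1.43 (0.95 to 1.94), with 0.12 for 13HH3. The start of Nespas, the antisense noncoding RNA of the paternal copy, had 250 tags of H3K9ac, 47 of 13HH3, 89 of 7G8 and 46 of input. This gave 2.18 for H3K9ac, -0.13 for 13HH3 and 0.65 (0.12 to 1.19), with a peak, for 7G8. At the start 13539 bp downstream of that of Nesp, H3K9ac was at 1.37 and 13HH3 at -0.05. At the starts 43250 bp and 45686 bp downstream, H3K9ac was at 1.82 and 1.50, and 13HH3 was at 1.27 and 0.94. The windows at 43250 bp and 45686 bp share 1564 bp, and those of Nespas and of the start at 13539 bp overlap too. The strongest 1 kb of 13HH3 in and around Gnas, 47 tags against 12 of input, lies in both windows at 43250 bp and 45686 bp. H3K9ac was thus above 2-fold in each window. 13HH3 passed 2-fold in the window at 43250 bp, but these tags cannot be given to a single start. At Nespas 13HH3, unlike 7G8, was not above input.

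Igf2r, the receptor that takes up and clears Igf2, had 48.7 normalised tags for H3K9ac, 34.7 for 13HH3, 34.8 for 7G8 and 20.7 for input, with ratios of 1.23, 0.74 and 0.75. Airn, the noncoding RNA that starts in an Igf2r intron at the DMR, was at 1.01 (0.54 to 1.51) for H3K9ac and 0.33 for 13HH3. Inside Igf2r the starts at 18252 bp and 18864 bp, before that of Airn and with 3388 bp of their windows in common, had H3K9ac ratios of 1.22 and 1.17 and 13HH3 ratios of 1.08 and 1.02. The intervals of H3K9ac at Igf2r and Airn overlap.

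Kcnq1, a potassium channel gene, had an H3K9ac ratio of 0.44 (-0.04 to 0.92) and a 13HH3 ratio of -0.05 in the 4 kb around its 5′ end. In the 1 kb around it the signal was higher, with 52 tags of H3K9ac, 18 of 13HH3, 25 of 7G8 and 5 of input, and ratios of 3.12 (1.80 to 4.80), 1.68 (0.20 to 3.47) and 2.02 (0.61 to 3.76). The strongest 1 kb of H3K9ac in the whole gene was centred 188750 bp downstream, with 111 tags against 15 of input. The RefSeq promoter of Kcnq1ot1, the long antisense RNA that starts at the DMR of this domain, was matched 189293 bp from the 5′ end of Kcnq1. Around it 228 tags of H3K9ac, 87 of 13HH3, 113 of 7G8 and 51 of input were counted, and the ratios were 1.90 (1.45 to 2.36), 0.61 (0.09 to 1.14) and 0.84 (0.35 to 1.35), with a peak for each antibody. H3K9ac alone reached 2-fold in the 4 kb there.

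Grb10, an adaptor protein that dampens insulin and growth factor signals, was the gene of these 5 with a higher ratio for 13HH3 than for H3K9ac, by 0.48 (-0.01 to 0.97). It had 27.6 normalised tags for H3K9ac, 38.4 for 13HH3, 18.5 for 7G8 and 21.7 for input. The 13HH3 ratio was 0.82 (0.27 to 1.39), while H3K9ac was at 0.34 (-0.24 to 0.94) and 7G8 at -0.24 (-0.88 to 0.41). In the 1 kb around the 5′ end, with 5 input tags, 13HH3 was at 1.68 (0.20 to 3.47). There 7G8 was at 1.37 (-0.14 to 3.18) and H3K9ac at 1.00 (-0.61 to 2.86). With 1 kb on each side, 13HH3 was at 1.31 (0.51 to 2.18), H3K9ac at 0.99 (0.17 to 1.87) and 7G8 at 0.33 (-0.57 to 1.27). The value of 13HH3 was thus the highest in each window, with overlapping intervals. Around a start 1282 bp downstream, in a window that shares 2718 bp with the first, H3K9ac and 13HH3 were alike, at 1.08 and 1.07, and 7G8 was at 0.04. At the start 11951 bp downstream, in a CpG-rich stretch, H3K9ac, 13HH3 and 7G8 were all below input, at -0.98, -1.06 and -1.20.

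**Figure D3:**
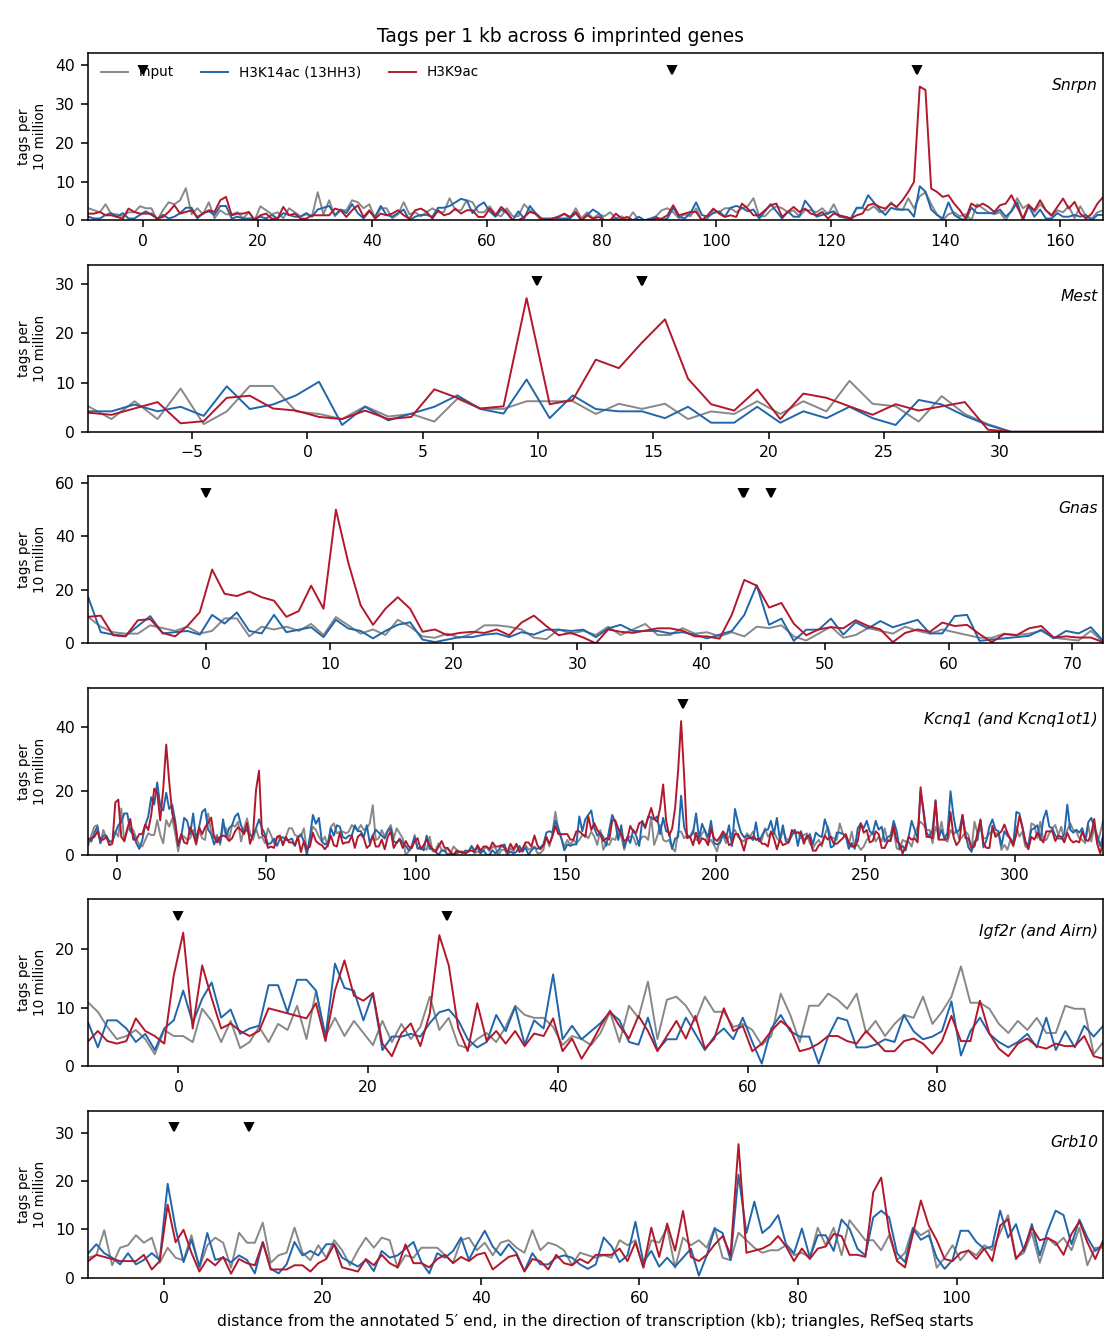
Tags per 10000000 in 1 kb bins (y axis) of H3K9ac, H3K14ac (13HH3) and input against the distance in kb from the annotated 5′ end of 6 imprinted genes (x axis), with RefSeq starts as triangles. H3K9ac rises at the inner promoters of Snrpn (135020 bp) and Mest (14503 bp) and at the Kcnq1ot1 start inside Kcnq1, where the input line stays low, and the flat end of the Mest panel is a gap in the genome assembly.

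Ube3a, the E3 ubiquitin ligase of the Snrpn domain whose imprint is known from neurons, had the most H3K9ac of the 33 genes. It held 172 normalised tags for H3K9ac, 33.8 for 13HH3, 37.3 for 7G8 and 11.4 for input. The ratios were 3.92 (3.30 to 4.61), 1.57 (0.86 to 2.33) and 1.71 (1.03 to 2.46), and 99.4% of all genes were below it for H3K9ac. The other genes of this domain, expressed from the paternal copy, were lower. Peg12, a Frat family gene, was at 1.82, Mkrn3, a makorin ring finger gene, at 1.41, and Ndn and Magel2, both of the MAGE family, at 1.30 and 0.95. The interval of H3K9ac of Ube3a lay above those of all 4, whose own intervals overlap. Peg12 alone of the 4 passed 2-fold with 13HH3, at 1.04 (0.40 to 1.71), and was at 0.28 (-0.42 to 1.00) with 7G8.

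At H19, a noncoding RNA, and Igf2, the growth factor gene beside it, expression is known to alternate between the copies under an insulator. H19 had 42.3 normalised tags for H3K9ac against 25.4 for input, a ratio of 0.74 (0.23 to 1.26). Igf2 was below input at its annotated 5′ end with every antibody, at -0.98, -0.72 and -1.59. Its inner starts, 4946 bp to 8012 bp downstream, had H3K9ac ratios from 1.43 to 1.93, and the windows of neighbouring ones share 2184 to 3435 of 4000 bp. The start at 7327 bp was the highest, with 156 tags of H3K9ac, 82 of 13HH3, 53 of 7G8 and 34 of input, and its ratios were 1.93, 1.11 and 0.34. The inner starts at 4946 bp, 5511 bp and 8012 bp were below 2-fold with 13HH3, at 0.86, 0.81 and 0.68. As at Mest and Snrpn, H3K9ac of Igf2 was thus found at inner promoters, and 13HH3 passed 2-fold at the start at 7327 bp only.

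In the Kcnq1 domain, 4 further genes are known for expression from the maternal copy. Phlda2, which limits placental growth, had an H3K9ac ratio of 1.71 (1.26 to 2.20). Cdkn1c, an inhibitor of cyclin-dependent kinases, and Slc22a18, a transporter gene, had the same counts of H3K9ac (112) and of input (39) and therefore the same ratio, 1.26 (0.72 to 1.82). A start of Slc22a18 1380 bp downstream, whose window shares 2620 bp with the first, was at 1.11. Ascl2, a transcription factor of the trophoblast, was at 1.00 (0.57 to 1.43). The intervals of these 4 overlap in H3K9ac. They overlap in 13HH3 too, where Cdkn1c was at 0.96 (0.40 to 1.55) and the other 3 at 0.22 to 0.33, and with 7G8 Cdkn1c was at 0.37, beside 0.46 at Slc22a18, 0.47 at Phlda2 and -0.08 at Ascl2.

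In the Dlk1-Dio3 domain, the 2 coding genes and the noncoding RNA had similar H3K9ac. Dlk1, a Notch-like membrane protein, was at 1.38 (0.72 to 2.07), Meg3, the maternal noncoding RNA, at 1.77 (1.20 to 2.38), and Dio3, the deiodinase that inactivates thyroid hormone, at 1.45 (1.00 to 1.93). For 13HH3 the ratios were 0.99 (0.30 to 1.72) at Dlk1, -0.03 (-0.77 to 0.70) at Meg3 and 1.01 (0.52 to 1.51) at Dio3, so the value of Meg3 was the lowest, with an interval that overlaps the others. Further starts were at 2-fold for H3K9ac as well, with 1.44 at 1372 bp in Dlk1, and 1.71, 1.24 and 1.05 at 1022 bp, 3497 bp and 4397 bp in Meg3. The start in Dlk1 was at 1.03 for 13HH3, while those in Meg3 were at 0.04, 0.07 and 0.21. The windows at 1372 bp in Dlk1 and 1022 bp in Meg3 share 2628 bp and 2978 bp with those of the 5′ ends, so they hold largely the same tags. The strongest H3K9ac near Dio3 lay 1250 bp upstream, 250 bp from a start of Dio3os, its antisense RNA.

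The last 3 genes are neighbours of a DMR and are known for expression from the maternal copy. Copg2, a subunit of the coat of transport vesicles, had an H3K9ac ratio of 1.93 (1.29 to 2.64), Asb4, which has ankyrin repeats and a SOCS box, 1.02 (0.43 to 1.64), and Zim1, a zinc finger gene, 0.49 (-0.06 to 1.06). In narrower windows Zim1 was higher, at 0.98 (0.27 to 1.74) with 1 kb on each side and 1.26 (0.41 to 2.18) with 500 bp. At Asb4 the strongest 1 kb of H3K9ac was centred 3250 bp upstream of the gene, outside the 4 kb window. It held 55 tags against 15 of input.

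**Figure D4:**
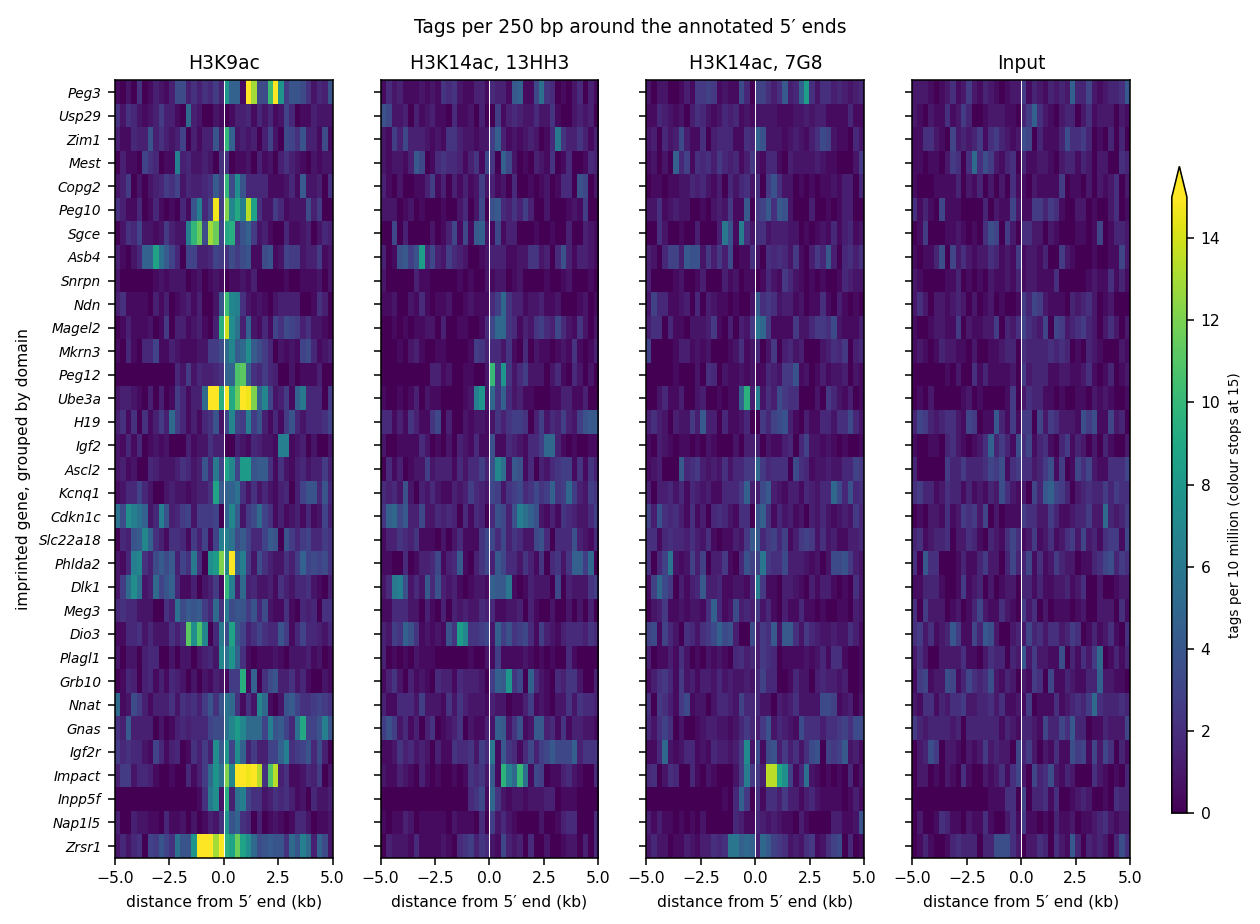
Tags per 10000000 in 250 bp bins (colour, the same scale in all 4 panels) from 5 kb before to 5 kb after the annotated 5′ end (x axis) of each imprinted gene (y axis) for H3K9ac, 13HH3, 7G8 and input. H3K9ac is brightest at Ube3a, Impact and Zrsr1, and the rows of Snrpn, Mest, Usp29 and Igf2 stay dark at the 5′ end.

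H3K14ac relative to H3K9ac was compared within each gene, first with 13HH3. The log2 ratio of 13HH3 to H3K9ac ran from -2.77 (Zrsr1) to 0.74 (Mest, at its annotated 5′ end) with a median of -1.09, beside -0.93 for all genes. Its interval lay below 0 at 25 of the 33 genes and above 0 at Mest, beside 62.7% and 5.3% of all genes. The median was -1.54 for the 11 genes with a DMR promoter, -0.49 for the 5 with an inner DMR and -0.93 for the remaining 17. Among the genes with a DMR promoter, Mest (0.74), Snrpn (-0.40) and Usp29 (-0.15) were measured far from that promoter. The other 8 ran from -2.77 to -1.34, and the 5 genes with an inner DMR, from -1.31 to 0.48, but the intervals of the nearest genes overlap (Nap1l5, -2.08 to -0.64, and Gnas, -1.78 to -0.86). All of those 8 but Impact have a CpG-rich start, and the median of all genes with such a start was -1.48. Nnat (-1.39) and Nap1l5 (-1.34) lay above that median and the others of the 8 below it. The 5 genes with an inner DMR, all but Grb10, have a CpG-rich start too, and these lay above it (-1.31 to -0.48). A link with base composition was not tested. At their inner starts, 14503 bp and 135063 bp downstream, Mest and Snrpn were at -2.06 and -2.11. The remaining 17, from -2.35 (Ube3a) to 0.26 (Igf2), overlap both groups. The values depend on the efficiency of each antibody, so the order of genes can be read and a single ratio cannot.

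The H3K14ac antibodies were set against each other in the same way. The log2 ratio of 7G8 to 13HH3 had a median of 0.12, and its interval included 0 at 26 of the 33 genes. It lay above 0 at Zrsr1 (1.17, 0.69 to 1.67), Plagl1 (1.13, 0.28 to 2.04) and, at its annotated 5′ end, Snrpn (1.08, 0.06 to 2.19, from 28 and 12 tags). It lay below 0 at Grb10 (-1.06, -1.62 to -0.51), Igf2 (-0.86, -1.68 to -0.08), Peg12 (-0.76, -1.33 to -0.19) and Cdkn1c (-0.60, -1.09 to -0.11). Among all genes the interval lay above 0 at 8.49% and below 0 at 10.9%, so 3 and 4 of 33 (9.09% and 12.1%) were near the background. Each antibody had a single library, so antibody and library cannot be told apart.

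**Figure D5:**
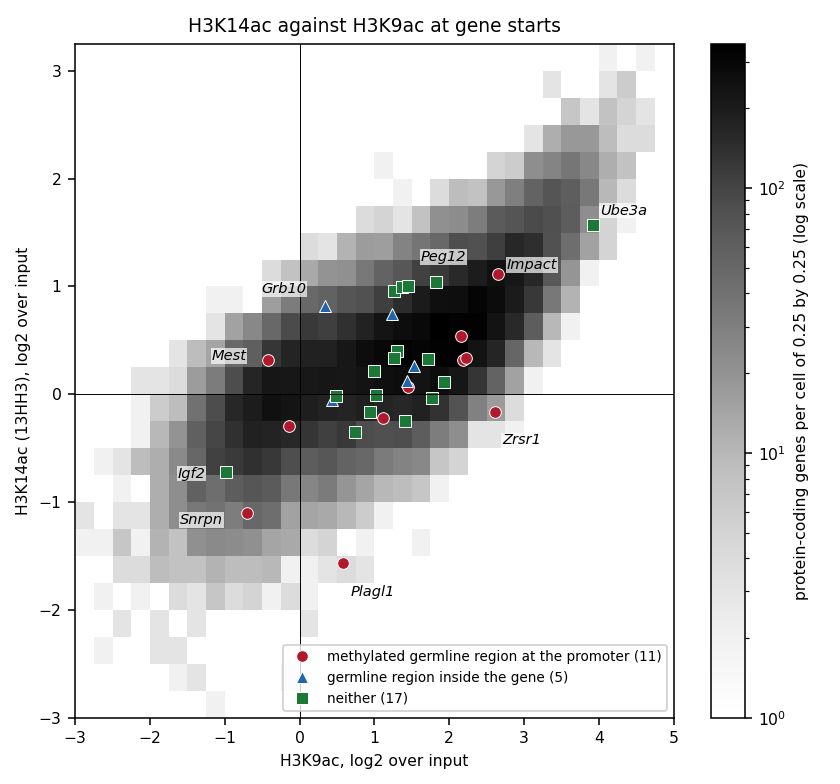
H3K14ac (13HH3, y axis) against H3K9ac (x axis), both as log2 over input in 4 kb around the annotated 5′ end, for all protein-coding genes (grey, number per cell on a log scale) and the 33 imprinted genes by the position of their DMR. Zrsr1 (2.61, -0.16) and Plagl1 (0.58, -1.57) lie at the lower edge of the grey field, and Grb10 (0.34, 0.82) lies inside its upper part.

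H3K9ac went with the base composition of the start. Of the 33 genes, 20 (60.6%) had a CpG-rich start, with at least 50% G and C and an observed to expected CpG ratio of at least 0.6 in 1 kb, beside 45.6% of all genes. The H3K9ac ratio was at or above 2-fold at 17 of these 20, beside 90.4% of the 9833 protein-coding genes with a CpG-rich start. All 20 had an H3K9ac peak, as did 97.8% of those genes. Their median was 1.46 for H3K9ac, beside 2.13 for those genes, and 0.29 beside 0.64 for 13HH3. For each of the 3 antibodies, 15 of the 20 lay below the median of the CpG-rich genes. The imprinted genes with a CpG-rich start thus had less H3K9ac than the typical gene with such a start. Their median minus that of all such genes was -0.67 on the log2 scale, although the medians of the whole lists were close. This is a description of 1 library for each antibody, and the 20 genes include a pair that shares a window. The remaining 13 genes had a median of 0.74, beside 0.26 for other genes without a CpG-rich start.

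The genes known for expression from the paternal copy (19) and from the maternal copy (14) were much alike. Their median H3K9ac ratios were 1.41 and 1.25, their medians of 13HH3 were 0.26 and 0.17, and their ranges overlap. The 4 genes with H3K9ac below input at the annotated 5′ end (Usp29, Mest, Snrpn and Igf2), with input scaled by total tags, are paternal ones, and each had another start above 2-fold. Of 21531 protein-coding genes with H3K9ac tags, 4925 were below input in the same way. Usp29, Mest and Snrpn were measured far from their DMR promoters, so the place measured and the expressed copy cannot be told apart. Under a scaling by bins without peaks, Mest and Usp29 were no longer below input.

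Motifs were counted on both strands of the 4 kb windows. TGCCGC, the ZFP57 hexamer, was present at least once at 26 of the 33 genes (78.8%), beside 53.1% of all protein-coding genes. Among CpG-rich starts it was present at 18 of the 20 imprinted genes, beside 72.3% of all such genes. Peg3 and Nnat had the most, with 8 each, and Plagl1 had 6. GCCATNTT, the core of the YY1 motif, was present at 18 genes (54.5%), beside 51.4% of all, with 5 copies at Peg3 and 4 each at Inpp5f and Meg3. GGNGGCAG, a part of the CTCF motif, was present at 19 (57.6%), beside 77.5% of all, with 9 copies at Igf2 and 7 at Meg3. Such short matches occur often and do not show that a factor was bound.

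Of 46 other genes of imprinted domains, 41 were in the annotation, and 24 of them were at or above 2-fold for H3K9ac, 10 for 13HH3 and 6 for 7G8, beside 57.2%, 16.3% and 16.8% of all genes. Their median ratios were 1.28, 0.37 and 0.42, close to those of the 33 genes and of all genes. Nap1l4, a histone chaperone gene of the Kcnq1 domain, had the highest H3K9ac ratio of the 41, with 18 input tags. Its interval (3.12 to 4.57) overlaps that of Mcts2 (2.64 to 3.63), which held more H3K9ac tags (407 against 301). Nap1l4 was at 3.80 for H3K9ac, 1.95 for 13HH3 and 1.88 for 7G8, and Cd81, a tetraspanin gene, at 2.94, 1.78 and 1.30. Tssc4, of the same domain, was at 2.71, 1.15 and 1.06, and Tspan32 at 1.44, 1.25 and 0.66. Beside Grb10, Cobl, an actin nucleator, was at 2.70, 1.78 and 1.56, whereas Ddc, on the other side, was at -0.39, -0.02 and -0.21.

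Other partners with H3K9ac at or above 2-fold were Mcts2 (3.12), Ppp1r9a (2.73), Commd1 (2.36), Wdr25 (2.13), Casd1 (2.12), Sfmbt2 (2.10), Atp10a (1.89), H13 (1.86), Herc3 (1.77), Slc38a4 (1.75), Trappc9 (1.75), Zdbf2 (1.66), Rasgrf1 (1.61), Pon3 (1.50), Klf14 (1.28), Pdk4 (1.25) and Pon2 (1.23). Mcts2, a retrogene inside H13, is itself a paternally expressed gene with a DMR promoter, and its H3K9ac was above that of any of the 11 such genes described above, with an interval (2.64 to 3.63) that overlaps that of Impact (2.20 to 3.14). Begain was at 0.76 for H3K9ac, 1.34 for 13HH3 and -0.43 for 7G8, and Rtl1 at 0.90, 1.03 and 0.42. The lowest was Slc22a2, a transporter gene of the Igf2r domain known for expression in placenta, at -1.96 (-2.74 to -1.23) for H3K9ac, and Slc22a3, of the same domain, was at 0.39. The noncoding RNAs downstream of Meg3 had no enrichment of H3K9ac at their annotated starts, with Rian at 0.08 (-0.57 to 0.74) and Mirg at -0.26 (-0.96 to 0.43), against 1.77 at Meg3 itself.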

How the data were processed

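Reads of 36 bases were mapped to mm9 by the authors (ELAND, up to 1 mismatch), and the deposited files list where each read lies and on which strand, without normalization. The other columns, a constant score among them, were not used. Repeats of a position and strand were found for 13HH3 only (738619 tags, 3.30%), and 1 tag of each was kept. The 5′ ends were moved 100 bp to the fragment middle. All genes needed at least 5 input tags, and input was scaled by total tags. Peaks were windows of 400 bp over a local Poisson rate from input (1 kb, 5 kb and 10 kb) at 1e-05. Calculations used Python 3.11.15, numpy 2.4.6, scipy 1.17.1, pandas 2.3.3, pysam 0.24.0 and matplotlib 3.10.9, and were tested on simulated data. All 33 genes are named, other starts at 2-fold for H3K9ac or where a statement compares them, and partners at 2-fold, when noncoding, or, for a few low ones, after their values were seen. The genes, lists and motifs were chosen with earlier results of these data known, and RefSeq starts (from GRCm38.p6) were added after seeing the data. The DMR position and the expressed copy are textbook knowledge. Alternatives were tried for window, scaling, pseudocount, repeats, shift, threshold and start.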

Additional observations from a re-analysis of the deposited data

How the results depend on the processing

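Every value rests on 1 library for each antibody, and the 33 genes had a median of 39 input tags, which gave 95% intervals with a median width of 1.12 on the log2 scale for H3K9ac. The 22 genes at 2-fold for H3K9ac became 21 to 27 over all alternatives (27 with RefSeq starts for the 27 genes that had them, or with 500 bp on each side), and the same 22 were kept in each except with a pseudocount, where Asb4 was lost. Small counts moved more. For 13HH3 the 4 genes became 8 with 1 kb on each side of the start, 7 with 500 bp and 2 with a pseudocount of 1 normalised tag. With 500 bp Dio3 and Impact were lost, so that 2 of the 4 were kept, and Peg12 and Dio3 were lost with the pseudocount and with tags not moved. The 3 genes of 7G8 became 5 and 6 with the narrower windows and 2 with the pseudocount and with RefSeq starts, where Zrsr1 was lost. The share of all genes rose in these windows too, from 16.3% to 27.3% and 33.7% for 13HH3, from 16.8% to 26.2% and 28.1% for 7G8 and from 57.2% to 63.3% and 66.1% for H3K9ac. At a threshold of 1e-10 the genes with a peak fell to 3 for 13HH3 and 2 for 7G8, and to 21 for H3K9ac, beside 9.05%, 6.31% and 58.3% of all genes. Scaling input by bins without a peak raised every H3K9ac value by 0.45, every 13HH3 value by 0.15 and every 7G8 value by 0.06, which puts Mest and Usp29 above 0 for H3K9ac at their annotated 5′ ends. Of 792 single values recomputed, 727 stayed within their own interval, 65 did not, 54 changed side of 2-fold and 0 of those at 2-fold fell below input. Part of these values could not change. Only 13HH3 had repeated tags to keep, and genes without a RefSeq start kept their annotated 5′ end. With 500 bp on each side, 34 of 99 values fell outside their interval. No paired analysis was possible because each antibody had 1 library.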
